A study of Mus musculus with 2 samples.

Results

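Accessible chromatin at 8 neutrophil granule and marker genes, S100a8, S100a9, Cxcr2, Retnlg, Ltf, Ngp, Camp and Lcn2, was examined in ATAC-seq peak lists from sorted colonic macrophages. ATAC-seq uses the Tn5 transposase to insert adapters into open DNA, so that a peak marks an accessible stretch. The genes are textbook markers of neutrophils, and their peaks were those that overlapped the annotated span of the gene in the mouse build mm10 plus 10 kb on either side. These windows held 28 of 128129 peaks in Tle4cKO and 32 of 128737 peaks in WT. The Tle4cKO library came from Tle4f/f Lyz2-Cre mice, in which the floxed corepressor gene Tle4 is deleted in cells that express Cre from the lysozyme locus, a driver active in macrophages and neutrophils alike. The WT library came from mice with Lyz2-Cre and no floxed Tle4, so that both genotypes carried the Cre allele. All mice were male C57BL/6 animals of 18.9 weeks, untreated, and each library pooled the cells of 2 mice. The cells were gated as CD64-positive, low in Ly6C and negative for Siglec-F. With 1 library per genotype no test between genotypes was possible, and each value below describes those libraries without a replicate check.

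Neutrophils are short-lived phagocytes that carry antimicrobial proteins in granules made in successive steps of their maturation in bone marrow. Proteins of the secondary granules, such as lactoferrin, cathelicidin and lipocalin-2, are made by myelocytes and metamyelocytes under C/EBP factors, above all C/EBP-epsilon. Mature neutrophils leave the marrow and enter inflamed colon by the chemokine receptor CXCR2, and their calprotectin, the complex of S100A8 and S100A9, is a marker of intestinal inflammation. Macrophages of the resting colon descend from monocytes, which transcribe S100a8 and S100a9 and lose that expression as they mature. Lcn2 is also induced in epithelium and macrophages by inflammatory signals.

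The labelled cell type was checked at 14 resident macrophage marker genes, and all 14 had a peak in their window in both lists. So did all 6 monocyte, 5 eosinophil and 5 B cell genes, and of 37 other neutrophil genes 34 had one in Tle4cKO and 34 in WT, so that a peak in the window does not tell these cell types apart. Of the 10 macrophage genes with an annotated start in the promoter table used here, 9 in Tle4cKO and 10 in WT had a peak within 1000 bp of it. Over protein-coding genes these shares were 64.3% in Tle4cKO and 64.8% in WT. Pileup, the authors' own value for each peak, is the height of the signal at its summit. The highest start peaks of these macrophage genes had a median pileup of 103 in Tle4cKO and 134 in WT, beside 110 in Tle4cKO and 141 in WT over protein-coding genes with a start peak. Over all peaks the median pileup was 20 in Tle4cKO and 28 in WT, and whether the authors scaled the libraries to each other is not known.

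The promoters of the members are shown as the 250 bases before the annotated start, since a peak there divides the 8 genes into 3 with one and 5 without. A peak lay across the promoter of S100a8, Cxcr2 and Ltf in both libraries, and none touched that of Ngp, Lcn2 or the other 3. Capitals mark matches on either strand to TTGCNNAA (C/EBP-type) or GAGGAAG (ETS core), and on the coding strand to TATAAA. The sequences are those of RefSeq for GRCm38.p6, 5′ to 3′ along the gene.
S100a8, chr3:90668821-90669070, plus strand: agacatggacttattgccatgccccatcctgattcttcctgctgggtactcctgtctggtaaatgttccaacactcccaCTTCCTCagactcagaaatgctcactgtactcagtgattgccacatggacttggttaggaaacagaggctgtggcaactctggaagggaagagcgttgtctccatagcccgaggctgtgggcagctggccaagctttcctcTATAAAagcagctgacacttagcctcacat
Cxcr2, chr1:74153744-74153993, plus strand: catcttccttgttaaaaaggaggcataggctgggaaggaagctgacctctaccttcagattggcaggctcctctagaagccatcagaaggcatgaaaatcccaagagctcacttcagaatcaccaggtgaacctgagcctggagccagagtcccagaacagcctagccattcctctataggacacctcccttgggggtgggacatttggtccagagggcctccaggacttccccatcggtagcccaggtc
Ltf, chr9:111019042-111019291, plus strand: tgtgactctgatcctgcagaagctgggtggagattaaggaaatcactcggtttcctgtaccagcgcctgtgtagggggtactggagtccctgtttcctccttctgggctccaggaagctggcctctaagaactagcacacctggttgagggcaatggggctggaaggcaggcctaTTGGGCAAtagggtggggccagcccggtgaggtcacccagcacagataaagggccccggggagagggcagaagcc
Ngp, chr9:110419558-110419807, plus strand: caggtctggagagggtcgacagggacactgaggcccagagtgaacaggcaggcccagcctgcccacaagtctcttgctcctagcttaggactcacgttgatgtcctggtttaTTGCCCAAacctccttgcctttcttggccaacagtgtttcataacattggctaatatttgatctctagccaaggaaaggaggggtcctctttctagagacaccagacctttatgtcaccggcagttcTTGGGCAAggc
Lcn2, chr2:32387740-32387989, minus strand: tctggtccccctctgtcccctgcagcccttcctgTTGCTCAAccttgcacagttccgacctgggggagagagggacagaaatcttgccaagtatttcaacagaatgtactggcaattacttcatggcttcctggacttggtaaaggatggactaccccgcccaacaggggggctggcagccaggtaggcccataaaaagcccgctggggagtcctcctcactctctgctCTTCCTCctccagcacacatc

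The C/EBP-type sequence TTGCNNAA was found in 5 of the 8 members, namely S100a9, Retnlg, Ltf, Ngp and Lcn2, and in 9.56% of 32851 promoters of the same length. Ngp held it at 2 places, 138 and 11 bases before the start. GAGGAAG was found in S100a8 and Lcn2 and in 10.6% of promoters, and TATAAA in S100a8, 30 bases before its start, and in 7.59% of promoters. The RUNX sequence TGTGGT was found in S100a9 and in 14.0% of promoters. The letters TGCGGT (5.10% of promoters), TTCAAAG (4.46%), CACGTG (6.02%) and CACGCG (7.62%) were in none of the 8 windows. No match overlapped another. Of the 3 promoters under a peak, only that of Ltf held the C/EBP-type sequence. That match, 75 to 68 bases before the start, lay within the Tle4cKO peak but beyond the end of the WT peak. A match describes letters and is not a binding site.

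Peaks were listed at few of the gene starts. A start peak, within 1000 bp of the annotated start, was listed for 3 of 8 members in Tle4cKO and for the same 3 in WT, against 64.3% of 17491 protein-coding genes in Tle4cKO and 64.8% in WT. Where protein-coding genes had a start peak, the highest had a median pileup of 110 in Tle4cKO and 141 in WT. The highest start peaks of S100a8, Cxcr2 and Ltf had pileups of 22, 75 and 14 in Tle4cKO, against 35, 94 and 13 in WT, each below that median. At Cxcr2 this was the peak inside the gene, and the peak across its promoter had 27 in Tle4cKO and 33 in WT. Weak accessibility in most cells and strong accessibility in a few cells of another kind cannot be told apart in pooled cells.

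**Figure D1:**
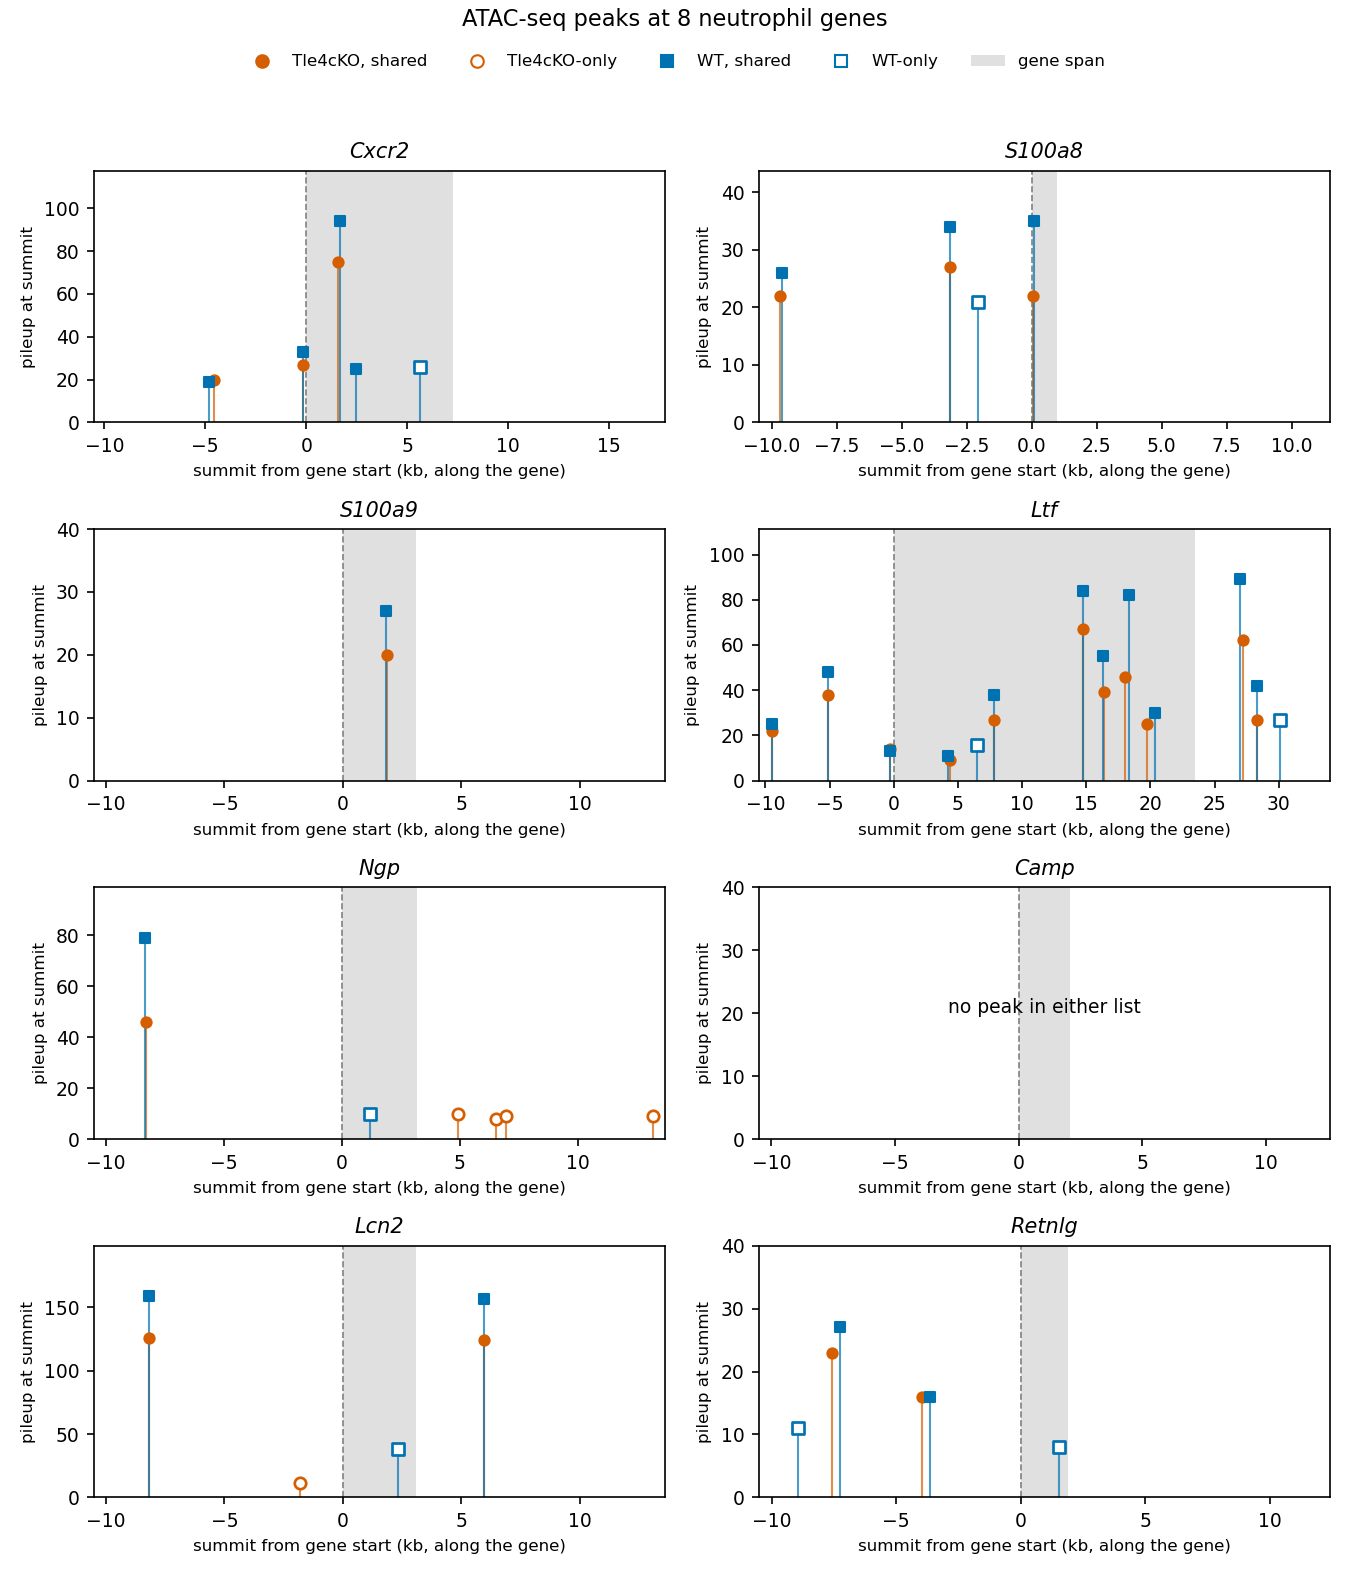
Pileup at the summit of every peak (vertical axis) against the distance of the summit from the gene start in kb along the gene (horizontal axis), in 1 panel per gene, for Tle4cKO (circles) and WT (squares). Filled symbols overlap a peak of the other list and open symbols do not; Ltf holds the most peaks and Camp holds none.

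Cxcr2, the neutrophil receptor for the chemokines CXCL1 and CXCL2, had 3 peaks in Tle4cKO and 5 in WT (gene at chromosome 1, 74153994 to 74161246). Its highest peak lay inside the gene, with the summit 1571 bp after the start in Tle4cKO and 1669 bp after it in WT, and a pileup of 75 in Tle4cKO and 94 in WT. In Tle4cKO that peak was a single interval of 1821 bp, from 74154889 to 74156709. In WT the same stretch was called as a peak of 1249 bp and a second one of 506 bp, which had a pileup of 25. The difference in peak number here thus includes 1 interval that was divided in WT and joined in Tle4cKO. The promoter peak was 538 bp wide in Tle4cKO and 259 bp wide in WT. It had a pileup of 27 in Tle4cKO and 33 in WT, and it covered 250 of the 250 printed bases in Tle4cKO and 214 in WT. A peak upstream, with its summit 4574 bp before the start in Tle4cKO and 4813 bp before it in WT, had pileups of 20 and 19 in Tle4cKO and WT. It lay 799 bp beyond the end of the neighbouring gene Rufy4 in Tle4cKO and 801 bp beyond it in WT. One WT-only peak of pileup 26 lay 5645 bp inside the gene.

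S100a8 and S100a9 encode the subunits of calprotectin, which binds calcium and sequesters zinc and manganese. The genes face each other on chromosome 3, with 22596 bp between their ends and no peak wholly between them in either list. S100a8 (90669071 to 90670034) had 3 peaks in Tle4cKO and 4 in WT. The peak across its start had a pileup of 22 in Tle4cKO and 35 in WT, with summits 34 and 75 bp after the start in Tle4cKO and WT. Upstream of it lay a peak 3168 bp before the start in Tle4cKO and 3166 bp before it in WT, with pileups of 27 in Tle4cKO and 34 in WT. The third shared peak, 9679 bp before the start in Tle4cKO and 9604 bp before it in WT, had pileups of 22 in Tle4cKO and 26 in WT. It was 683 bp wide in Tle4cKO and 1622 bp wide in WT, the largest difference in width among the members' pairs. A WT-only peak of pileup 21 lay 2075 bp before the start, 658 bp from the nearest Tle4cKO peak. S100a9 (90692630 to 90695721) had a single peak in each list, inside the gene 1880 bp after the start in Tle4cKO and 1831 bp after it in WT, with pileups of 20 in Tle4cKO and 27 in WT. No peak touched the promoter of S100a9, and the nearest one began 1742 bp from the start in Tle4cKO and 1715 bp from it in WT.

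Ltf encodes lactoferrin, the iron-binding protein of secondary granules, and held the most peaks of the 8 genes, 11 in Tle4cKO and 13 in WT (chromosome 9, 111019292 to 111042766). Its promoter peak was among its weakest, with a pileup of 14 in Tle4cKO and 13 in WT. It covered all 250 printed bases in Tle4cKO and 111 of them in WT. The high peaks lay in the later part of the gene and beyond its end. A peak 14751 bp after the start in Tle4cKO and 14746 bp after it in WT had pileups of 67 in Tle4cKO and 84 in WT. Farther along the gene, a peak from 111037138 to 111037909 in Tle4cKO and from 111037094 to 111037916 in WT had pileups of 46 in Tle4cKO and 82 in WT. Downstream of the gene, a peak at 111045853 to 111046815 in Tle4cKO and 111045986 to 111046816 in WT had pileups of 62 in Tle4cKO and 89 in WT. All 11 Tle4cKO peaks were shared, and the 2 WT-only peaks had pileups of 16 inside the gene and 27 downstream. The one inside the gene lay 372 bp from a Tle4cKO peak.

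Ngp, Camp and Lcn2 also encode proteins of secondary granules. Ngp (chromosome 9, 110419808 to 110423012), whose product neutrophilic granule protein is related to the cathelicidins, had 5 peaks in Tle4cKO and 2 in WT. Its 1 shared peak lay 8322 bp before the start in Tle4cKO and 8324 bp before it in WT, with pileups of 46 in Tle4cKO and 79 in WT. The other 4 Tle4cKO peaks had pileups of 8, 9, 9 and 10. None of them lay in the Ngp gene. The peaks of pileup 8, 9 and 9 lay inside the neighbouring gene Klhl18 (110425926 to 110476737), and 2 of these lay within 1000 bp of its end. The peak of pileup 10 lay between Ngp and Klhl18. The 1 WT-only peak, of pileup 10, lay inside Ngp. Camp (chromosome 9, 109847377 to 109849456), which encodes the mouse cathelicidin CRAMP, had no peak in its window in either list. The nearest peaks lay 12867 bp away on the side of its start in Tle4cKO, with a pileup of 24, and 12810 bp away in WT, with a pileup of 47.

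Lcn2 encodes lipocalin-2, which binds bacterial siderophores (chromosome 2, 32384637 to 32387739). Its window held the strongest peaks of all members, and these lay at the starts of other genes. A peak at the start of Ptges2 had pileups of 126 in Tle4cKO and 159 in WT, and one at the start of 1110008P14Rik had 124 in Tle4cKO and 157 in WT. Inside Lcn2, a WT-only peak from 32384973 to 32385502 had a pileup of 38, the highest of the WT-only peaks at the members, and lay 2516 bp from the nearest Tle4cKO peak. In front of Lcn2, 1797 bp before its start, lay a Tle4cKO-only peak of pileup 11, the highest of the Tle4cKO-only peaks at the members. No peak of either list overlapped the promoter sequence printed above.

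Retnlg, which encodes resistin-like gamma, a secreted protein of neutrophils (chromosome 16, 48872608 to 48874498), had 2 peaks in Tle4cKO and 4 in WT. The shared peaks lay upstream. The farther one had pileups of 23 in Tle4cKO and 27 in WT, and the nearer one 16 in Tle4cKO and 16 in WT. Their summits were displaced by 351 and 305 bp between the lists. The 2 WT-only peaks had pileups of 11 upstream and 8 inside the gene.

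Peaks found in 1 list only made up a share of the members' peaks whose interval takes in that of the whole list, in both libraries. Of 28 Tle4cKO peaks 5 were Tle4cKO-only (17.9%, 95% exact Clopper-Pearson interval 6.06% to 36.9%), against 23.5% of all Tle4cKO peaks. Of 32 WT peaks 8 were WT-only (25.0%, 11.5% to 43.4%), against 27.1% of all WT peaks. The list-only peaks were weak. Those of Tle4cKO had pileups of 8 to 11 and those of WT 8 to 38, with medians of 9 in Tle4cKO and 18.5 in WT, beside medians of 10 and 12 over all list-only peaks of Tle4cKO and WT. Strong peaks are rarely missing from the other list, so the counts were also read by pileup. With a pileup under 15, 5 of 7 Tle4cKO peaks of the members were Tle4cKO-only (background 56.2%) and 3 of 5 WT peaks were WT-only (background 71.6%). From 15 to 29 these were 0 of 12 in Tle4cKO (7.03%) and 4 of 11 in WT (25.0%). From 30 to 59 they were 0 of 4 in Tle4cKO (1.67%) and 1 of 9 in WT (7.56%), the peak inside Lcn2. At 60 and above they were 0 of 5 in Tle4cKO (0.150%) and 0 of 7 in WT (0.811%). Counts this small do not separate the members from the background, and the intervals cover counting error only.

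The shared peaks formed 23 pairs at 7 genes, each pair being the highest overlapping peaks of both lists. The pileup was lower in Tle4cKO in 20 of the 23 (87.0%), beside 90.8% of all 92328 pairs, equal in 1 and higher in 2. The median Tle4cKO to WT ratio was 0.794, beside 0.741 over all pairs. Since that ratio varies with the pileup itself, each was divided by the median ratio of pairs of like summed pileup. On the log2 scale this relative ratio had a median of 0.15 over the 23 pairs, with a range of -0.32 to 0.60. It was above 0 in 15 of 23 pairs (65.2%), beside 47.4% of all pairs. The SD over all pairs was 0.31, and their 5th and 95th percentiles were -0.53 and 0.51.

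By gene, the relative log2 ratio was above 0 in 3 of 3 pairs at Cxcr2, 2 of 3 at S100a8, 1 of 1 at S100a9, 7 of 11 at Ltf, 2 of 2 at Retnlg, 0 of 1 at Ngp and 0 of 2 at Lcn2. The medians were 0.28 at Cxcr2, 0.23 at S100a8, 0.13 at S100a9, 0.05 at Ltf, 0.33 at Retnlg, -0.27 at Ngp and -0.01 at Lcn2. The pairs in the Lcn2 window were the peaks at the starts of 1110008P14Rik and Ptges2, so these values do not describe Lcn2 itself. One pair was over 1.5-fold higher in Tle4cKO, beside 3.50% of all pairs, and 0 were over 1.5-fold lower, beside 3.82%. The 1 pair was the peak of Cxcr2 near the end of Rufy4, with pileups of 20 in Tle4cKO and 19 in WT, a ratio of 1.05 (counting interval 0.533 to 2.09) where pairs of like pileup had 0.696. No member pair was past that fold with 20 bins of summed pileup in place of 50, with ratios relative to all pairs, or with lists of 100000 peaks each. Among the lowest was the Ltf pair with pileups of 46 in Tle4cKO and 82 in WT, a ratio of 0.561 (0.382 to 0.815) where pairs of like pileup had 0.701. The single pair at Ngp had 46 in Tle4cKO and 79 in WT, a ratio of 0.582 (0.396 to 0.848) beside the same 0.701. In 0 of the 23 pairs did the counting interval leave out the ratio of pairs of like pileup. These intervals treat a unit of pileup as one counted fragment. What a unit stands for is not given in the sources used here, so their true width is unknown.

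**Figure D2:**
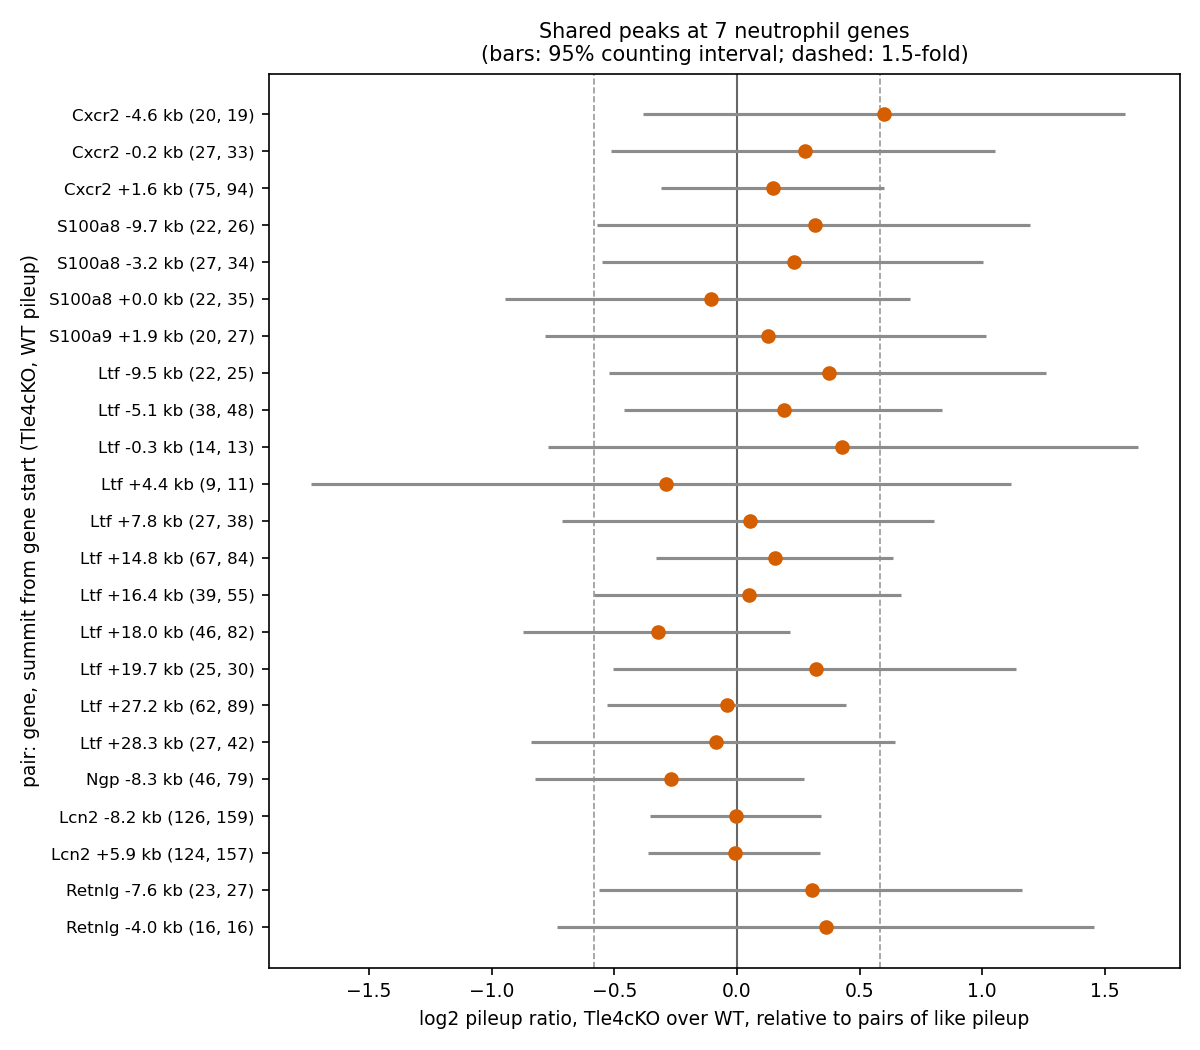
Log2 pileup ratio of Tle4cKO over WT relative to pairs of like pileup (horizontal axis) for each of the 23 pairs (rows, named by gene, summit position and the Tle4cKO and WT pileups), with 95% counting intervals as bars. All 23 bars cross 0, and 15 of the 23 points lie above it.

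Positions and widths of the shared peaks were close to what all pairs showed. The summits of the members' pairs lay a median of 48 bp apart, beside 44 bp over all pairs. They were within 50 bp in 13 of 23 pairs, beside 53.5% of all, and over 200 bp apart in 6, beside 24.8%. The farthest were those of the Ltf pair near its 3′ end, 638 bp apart. The width ratio of Tle4cKO to WT had a median of 0.938 at the members and 0.931 over all pairs, and 8 of 23 pairs were wider in Tle4cKO, beside 30.0% of all. The promoter peaks of Cxcr2 and Ltf were among the 8, with 538 and 613 bp in Tle4cKO against 259 and 332 bp in WT. The start peak of S100a8 was narrower, with 686 bp in Tle4cKO and 827 bp in WT.

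**Figure D3:**
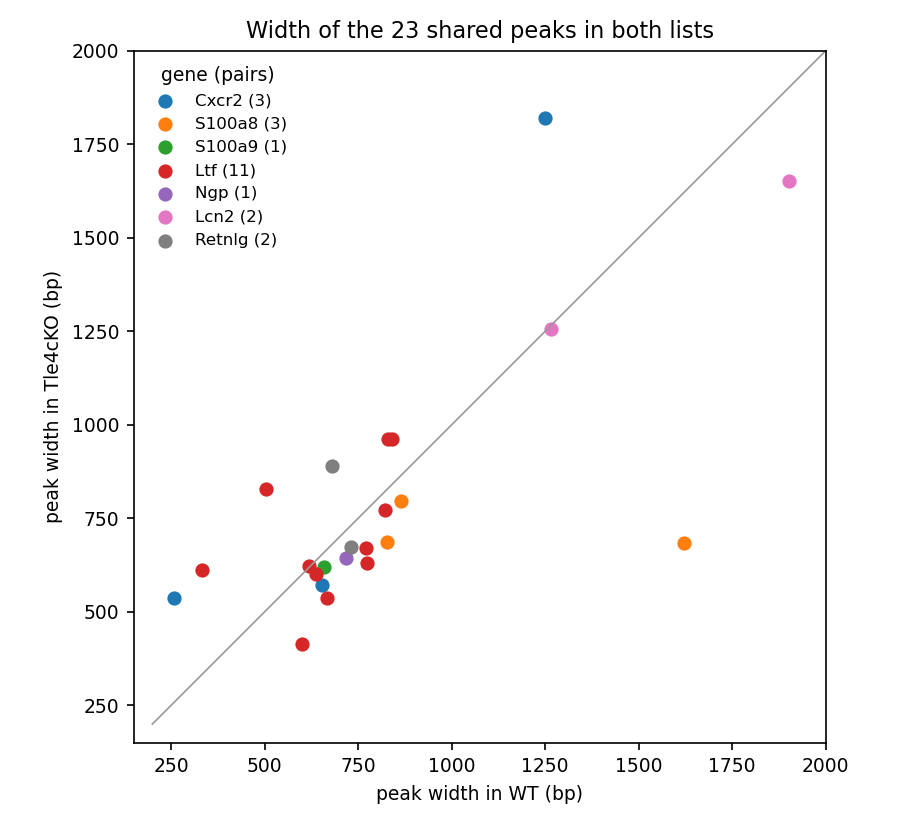
Width in bp of each of the 23 shared peaks in Tle4cKO (vertical axis) and WT (horizontal axis), coloured by gene, with the line of equal width. Of the 23 points 8 lie above the line, and the S100a8 peak of 683 bp in Tle4cKO and 1622 bp in WT lies farthest below it.

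Other neutrophil genes, from a list of 37, were likewise divided into genes with and without a start peak. Of the 30 with an annotated start, 20 in Tle4cKO and 23 in WT had a start peak, beside 64.3% of protein-coding genes in Tle4cKO and 64.8% in WT. Among 5 genes of primary granules, which are made by promyelocytes, the number was 1 in Tle4cKO and 3 in WT. Elane, the neutrophil elastase gene, had a start peak of pileup 45 in Tle4cKO and 52 in WT. The proteinase 3 gene Prtn3, on the same chromosome, had no start peak in either list. Ctsg (cathepsin G) and Ms4a3 had start peaks in WT alone, of pileup 11 and 14, and Mpo (myeloperoxidase) in neither. In the gene list named for secondary and tertiary granules, 5 of the 8 genes with an annotated start had a start peak in both libraries. These were Mmp8, Mmp25, Cybb, Ncf1 and Lyz2, with 32 to 94 in Tle4cKO and 46 to 121 in WT. Of these, Cybb and Ncf1 encode subunits of the phagocyte NADPH oxidase and Lyz2 lysozyme, which macrophages also make. The subunit encoded by Ncf1 is cytosolic and not a granule protein. Cd177, Chil3 and Olfm4 had none in either list. Among 7 surface receptor genes with an annotated start, 5 in Tle4cKO and 6 in WT had a start peak. Ly6g, the antigen by which mouse neutrophils are sorted, had no peak in its window in Tle4cKO and 1 in WT, of pileup 12. Of 3 granulocyte transcription factor genes with an annotated start, Cebpa, Cebpb and Gfi1, all had a start peak in both lists, with 167, 182 and 37 in Tle4cKO and 198, 200 and 55 in WT. Of 7 further genes with an annotated start, 6 had one in both lists, among them Mxd1 with 209 in Tle4cKO and 234 in WT and S100a6 with 123 in Tle4cKO and 141 in WT.

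**Figure D4:**
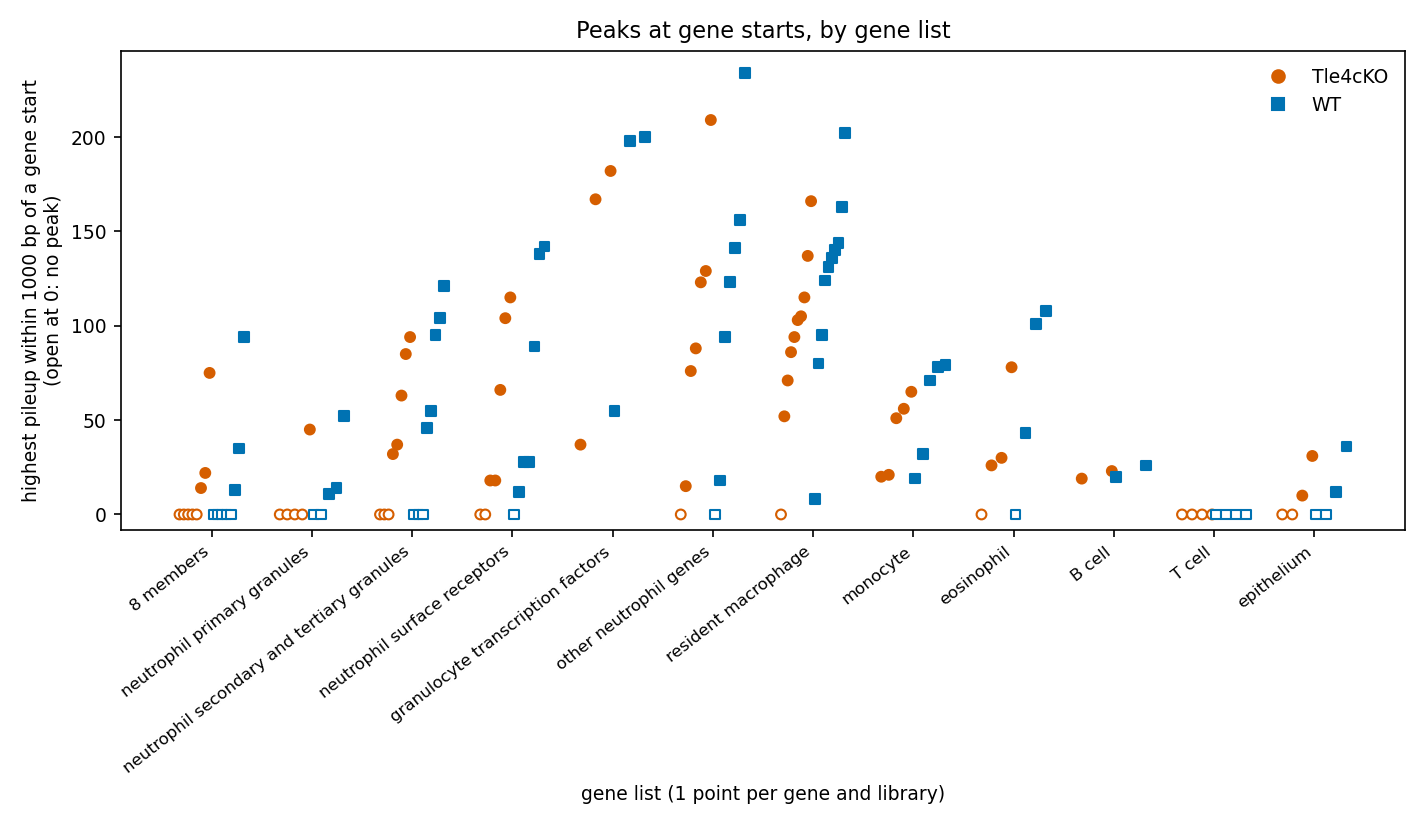
Highest pileup within 1000 bp of the annotated gene start (vertical axis) for each gene of each list (horizontal axis), with Tle4cKO as circles left of WT as squares and open symbols at 0 for genes without a start peak. The 8 members reach 75 in Tle4cKO and 94 in WT, below the median of the resident macrophage list, which is 103 in Tle4cKO and 134 in WT.

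Of 215 Tle4cKO peaks at these other neutrophil genes 23 were Tle4cKO-only (10.7%), beside 23.5% of all Tle4cKO peaks. Of 234 WT peaks 49 were WT-only (20.9%), beside 27.1% of all WT peaks. Their median pileup was 31 in Tle4cKO and 41 in WT, beside 20 in Tle4cKO and 28 in WT over all peaks. The list-only share falls with pileup, and these shares were not matched for it. The relative log2 ratio had a median of 0.04 over 182 pairs and was above 0 in 99 of them (54.4%), beside 47.4% of all pairs. It was over 1.5-fold higher in Tle4cKO in 6 of the 182 pairs, beside 3.50% of all pairs, and over 1.5-fold lower in 7, beside 3.82%. The largest difference in the number of list-only peaks was at Il1r2, the decoy receptor for interleukin-1. Of its 17 Tle4cKO peaks 3 were Tle4cKO-only, and of its 22 WT peaks 7 were WT-only. Clec4e had 0 of 2 Tle4cKO peaks Tle4cKO-only and 3 of 6 WT peaks WT-only. At Ms4a3 these were 0 of 1 and 3 of 4. Chil3 had 2 peaks in Tle4cKO, which were Tle4cKO-only, and 0 peaks in WT. Of their highest pairs, that of Cd177 had 16 in Tle4cKO and 38 in WT, a relative log2 ratio of -0.66, and that of Ctsg 13 in Tle4cKO and 28 in WT, one of -0.61. That of Padi4, which encodes the enzyme that citrullinates histones in neutrophils, had 63 in Tle4cKO and 65 in WT, a relative log2 ratio of 0.47, and that of Cebpe, the factor of secondary granule genes, had 48 in Tle4cKO and 53 in WT, one of 0.38.

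Start peaks at markers of further cell types differed from list to list, beside 64.3% of protein-coding genes with one in Tle4cKO and 64.8% in WT. They were listed for 5 of 5 monocyte genes with an annotated start in both lists, with median pileups of 51 in Tle4cKO and 71 in WT. For eosinophil genes they were listed for 3 of 4 in both, with medians of 30 in Tle4cKO and 101 in WT. Both medians are the values of 1 gene, Siglecf, which encodes the Siglec-F for which the cells were gated negative. The other start peaks had 26 in Tle4cKO and 43 in WT at Ccr3, and 78 in Tle4cKO and 108 in WT at Ear2. For B cell genes these were 2 of 2, with 21 in Tle4cKO and 23 in WT, for T cell genes 0 of 4, and for epithelial genes 2 of 4, with 20.5 in Tle4cKO and 24 in WT. The median relative log2 ratio of the pairs was 0.0 at the resident macrophage genes (117 pairs), 0.08 at monocyte genes (37), -0.15 at eosinophil genes (18), 0.02 at B cell genes (29), -0.001 at T cell genes (16) and -0.01 at epithelial genes (22). The part of such cells in the values of the 8 members was not tested.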

How the data were processed

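Each library has its own deposited peak list, in which the authors give position, width, summit and summit pileup. Per the file headers, that pileup is a signal, and its values are whole numbers of at least 7. According to the submitters' processing notes the build was mm10 and the tools included MACS2 2.1.1, Bowtie2 2.2.5, cutadapt 1.14, HOMER 4.7.2, edgeR 3.28.1 and featureCounts 1.5.0, with no step assigned to any. How peaks were thresholded, whether reads were shifted for the transposase, and how duplicates and depth were handled is not given in the sources used here. Depth is thus unknown. Unequal depth would change how many weak peaks are called and where their borders fall. Raw ratios and their directions were set beside those of all pairs. The relative ratios were read against pairs of like pileup or, in an alternative, against all pairs. The pileup limits of 15, 30 and 60 were the same for both lists, although their median pileups were 20 in Tle4cKO and 28 in WT.

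Gene spans and starts came from RefSeq tables of GRCm38.p6, to which mm10 corresponds, and all 8 members matched. Peaks were shared when they overlapped by at least 1 bp. Reciprocal highest overlapping peaks formed pairs, and from each log2 ratio the median of all pairs in the same of 50 classes of summed pileup was subtracted. Past 1.5-fold of that relative ratio counted as called. Intervals of ratios are exact Clopper-Pearson intervals at 95%, which cover counting error only, take a unit of pileup as one counted fragment (not stated in the sources) and are approximate for a summit maximum. No p-value was computed. Steps ran in Python 3.11.15 with scipy 1.17.1 and were tested on simulated data. The simulated list kept the borders of the WT peaks, and changes in pileup were planted only at a pileup of 60 and above. Recovery of changes at lower pileups, where most of the members' peaks lie, was not tested. The members, lists, motifs and alternatives were chosen with earlier results of these data known. Named genes were the 8 members, up to 4 per list with the largest difference in list-only peaks, up to 2 per list with the largest relative ratio of the highest pair, and neighbours with a peak at their end. Other genes named, among them those listed with a start peak or without one, were chosen after their values were seen.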

Additional observations from a re-analysis of the deposited data

How the results depend on the processing

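No paired analysis was possible because each genotype had 1 library, and no library could be left out. With 50 kb on either side, which takes in neighbouring genes, there were 106 Tle4cKO and 108 WT peaks, 18 Tle4cKO-only and 24 WT-only, and 83 pairs. Of these pairs 1 was over 1.5-fold higher in Tle4cKO, beside 3.50% of all pairs in the main setting, and 3 were over 1.5-fold lower, beside 3.82%. With the gene span alone, an alternative added after seeing the data, there were 11 Tle4cKO and 15 WT peaks, 0 Tle4cKO-only and 5 WT-only, and 11 pairs. A pileup of at least 15 left 0 of 21 Tle4cKO peaks Tle4cKO-only and 5 of 27 WT peaks WT-only. Lists of 100000 peaks each left 2 Tle4cKO-only and 5 WT-only peaks. Over all peaks of the full lists, 23.5% of Tle4cKO peaks were Tle4cKO-only and 27.1% of WT peaks were WT-only. At pileups of 15 to 29 these shares were 7.03% in Tle4cKO and 25.0% in WT, and from 30 to 59 they were 1.67% and 7.56%. Shares over all peaks were not computed for the equal lists. Without Ltf, also added later, 17 Tle4cKO and 19 WT peaks and 12 pairs were left. Without peaks at ends of neighbouring genes, the third addition, 3 of 23 Tle4cKO peaks were Tle4cKO-only and 8 of 29 WT peaks were WT-only. The 1 pair over 1.5-fold higher in Tle4cKO became 0 with equal lists, with ratios relative to all pairs, with 20 bins, with summits within 200 bp, with the gene span alone and without the neighbours' ends. At a fold below 1.5, planned as an alternative, 5 pairs were higher in Tle4cKO and 0 lower. The share of all pairs past that lower fold was not computed, so these 5 cannot be set against a background. The median relative log2 ratio was above 0 under all 9 alternatives that bear on it, from 0.009 with 50 kb to 0.19 without Ltf. All but the 50 kb setting reused the main 23 pairs or a part of them, so their shared sign is not independent support. With 50 kb, the only setting that adds other pairs, the median over 83 pairs was close to that of pairs of like pileup. Of 5 medians of single genes that changed sign, 3 did so with 50 kb (Ltf, Ngp, Lcn2), that of Lcn2 also relative to all pairs, and that of S100a8 with the gene span alone, where its start peak is left (-0.11). The cause was not tested. The counting intervals of single pairs have a median half-width of 0.78 on the log2 scale, if a unit of pileup is one counted fragment.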
